A study of Mus musculus with 8 samples.

Results

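The 8 genes described here encode the core of the mammalian circadian clock: the period genes Per1, Per2 and Per3, the cryptochrome genes Cry1 and Cry2, and the activator genes Arntl (which encodes Bmal1), Clock and Npas2. They were chosen by gene symbol, and all 8 were found among the 19041 rows of the deposited count table. The RNA came from immortalised mouse embryonic fibroblasts (MEFs) with floxed Stat3 alleles (Stat3 fl/fl), in which Cre-Thy1.1 had removed the endogenous gene. The cells were then transduced with WT-Stat3 (-/-WT cells, here WT) or with Stat3-C3S (-/-C3S cells, here C3S), a mutant that lacks the cysteines oxidised under oxidative stress. Each line was kept untreated (basal) or given 100 µM hydrogen peroxide (H2O2) for 2 h. The 4 groups, WT basal, WT H2O2, C3S basal and C3S H2O2, had 2 libraries each.

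Each line was 1 polyclonal population sorted for Thy1.1 and then for GFP, so a difference between WT and C3S cells cannot be told apart from a difference between these populations. All groups share the Stat3 deletion, the immortalisation and the viral vectors. The sources used here do not say at what time of day cells were harvested or whether their clocks had been synchronised, so the values are levels at harvest and not rhythms. In bulk RNA, fewer cells with a transcript and less transcript per cell cannot be told apart.

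In the clock, Clock and Bmal1 proteins pair and bind E-box sequences in DNA, where they switch on the Per and Cry genes. Per and Cry proteins then gather in the nucleus and block the Clock-Bmal1 pair, which closes a loop of about a day. Npas2 can stand in for Clock as the partner of Bmal1. In fibroblasts the loop runs in each cell, and serum, glucocorticoids and signals that reach Creb, the factor bound to cAMP response elements (CRE), can reset it by inducing Per1 and Per2.

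Promoter sequence was read from RefSeq (GRCm38.p6, the same build as mm10) as the 250 bases before each annotated start site. Windows were found for 7 of the 8 genes, 11 windows in all. The 5 windows below are shown because they hold the sequence elements through which clock and Creb factors are known to act. Capitals mark an E-box (CACGTG), an E'-box (AACGTG), a D-box (TTANGTAA) or the CRE core TGACGT, searched on both strands.
Per1, first start site: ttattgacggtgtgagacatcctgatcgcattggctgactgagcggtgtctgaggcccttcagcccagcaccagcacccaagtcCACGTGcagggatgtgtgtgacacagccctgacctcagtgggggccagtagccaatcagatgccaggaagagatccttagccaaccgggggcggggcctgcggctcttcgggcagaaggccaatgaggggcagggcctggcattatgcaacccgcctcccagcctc
Per1, second start site: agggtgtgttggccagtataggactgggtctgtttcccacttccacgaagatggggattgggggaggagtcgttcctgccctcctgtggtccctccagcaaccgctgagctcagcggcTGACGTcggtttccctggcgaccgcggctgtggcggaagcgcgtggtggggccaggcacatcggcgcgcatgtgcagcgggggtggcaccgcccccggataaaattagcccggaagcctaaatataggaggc
Per3: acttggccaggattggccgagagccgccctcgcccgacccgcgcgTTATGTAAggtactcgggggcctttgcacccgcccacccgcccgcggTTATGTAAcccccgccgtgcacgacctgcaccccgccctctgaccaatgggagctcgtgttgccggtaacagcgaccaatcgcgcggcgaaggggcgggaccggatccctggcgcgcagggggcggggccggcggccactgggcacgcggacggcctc
Cry1: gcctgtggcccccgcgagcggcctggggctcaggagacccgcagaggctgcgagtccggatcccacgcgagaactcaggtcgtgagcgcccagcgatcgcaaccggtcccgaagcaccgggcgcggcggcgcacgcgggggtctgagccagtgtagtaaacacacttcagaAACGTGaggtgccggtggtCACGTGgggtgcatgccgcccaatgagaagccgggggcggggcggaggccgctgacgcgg
Cry2: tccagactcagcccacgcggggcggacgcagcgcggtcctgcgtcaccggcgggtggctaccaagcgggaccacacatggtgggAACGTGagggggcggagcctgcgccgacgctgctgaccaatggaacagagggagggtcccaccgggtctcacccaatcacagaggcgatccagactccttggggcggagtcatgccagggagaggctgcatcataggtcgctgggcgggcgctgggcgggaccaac

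The first Per1 window (chr11:69098699-69098948, plus strand) held an E-box from 166 to 161 bases before the start. The second (chr11:69099902-69100151, plus strand) held a CRE core from 132 to 127 bases before it. The Per3 window (chr4:151044666-151044915, minus strand) held 2 D-boxes, the element bound by Dbp, Tef, Hlf and their repressor Nfil3, at 205 to 198 and 158 to 151 bases before the start. D-box factors are themselves clock outputs. In the Cry1 window (chr10:85185055-85185304, minus strand) an E'-box lay at 79 to 74 bases and an E-box at 60 to 55 bases. The Cry2 window (chr2:92434070-92434319, minus strand) held an E'-box at 166 to 161 bases. Among all 32851 RefSeq windows of this length, 6.02% held an E-box, 3.85% an E'-box, 2.06% a D-box and 6.47% a CRE core. The windows of Arntl, Clock and Npas2 held none of these elements, and none of the 11 windows held the Stat-binding sequence TTCCNGGAA, which 0.913% of all windows held. The full CRE (TGACGTCA, 1.55% of all windows) and the Ror response element (0.332%) were in none of the 11 either. The core letters bound by Hif-1 were also searched. ACGTG was in 4 of the 11 windows (16.6% of all windows), those of Npas2, Cry1, Cry2 and the first of Per1, and in the last 3 it lay inside the E-boxes and E'-boxes above. GCGTG was in 7 of the 11 windows (28.2% of all windows). A match describes these letters only.

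Expression is given as the normalised read count, the expected count of a gene divided by the size factor of its library. Means are given ± SD with n = 2 libraries. Library totals ran from 17050016 to 22260814 counts, and the number of genes detected from 14483 to 16725, with more in H2O2 than in basal libraries of either line. The Stat3 transcript, in which the introduced gene and any rest of the deleted one are not separated, stood at 8664 ± 263 in WT basal and 5092 ± 102 in C3S basal cells and at 7502 ± 76.3 and 4729 ± 97.9 after H2O2. Of 15 fibroblast markers, 14 were in the table. Their summed level was 315942 to 318259 in WT basal, 245607 to 253251 in WT H2O2, 302327 to 303979 in C3S basal and 268330 to 273899 in C3S H2O2 libraries, lower after H2O2 in both lines. Leukocyte markers (11 of 12 in the table) summed to 128 to 158 in WT basal, 360 to 379 in WT H2O2, 59.3 to 75.5 in C3S basal and 167 to 206 in C3S H2O2 libraries. The defining marker Tyrobp was at 0 in all groups but WT H2O2. In the same order of groups, epithelial markers (9 of 10) summed to 1955 to 2007, 1870 to 1945, 1131 to 1183 and 1161 to 1177, with Krt5 and Cldn4 at 0 in both basal groups. Epithelial sums thus followed the line. Endothelial markers (6 of 8) summed to 85.1 to 108, 108, 243 to 249 and 213 to 221. Cdh5 was at 0 in both WT groups, Tie1 in all groups but WT H2O2, and Vwf in C3S basal cells. Skeletal muscle markers (6 of 8) summed to 107 to 112, 123 to 129, 2.84 to 9.71 and 21.3 to 37.8, and neural markers (7 of 8) to 3731 to 3895, 2585 to 2809, 4728 to 4871 and 4726 to 4839. These lists moved with line or treatment, and their part in the differences below was not tested.

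The 8 genes spanned a wide range of levels. To compare genes with each other, normalised counts were divided by the merged exon length in kb (GENCODE M21). Clock, Cry1 and Per1 were the top 3 in each of the 4 groups, and Npas2 was last in each. In WT basal cells Clock stood at 177 ± 12.9 per kb, Per1 at 166 ± 10.3 and Cry1 at 160 ± 6.30, neighbours whose libraries overlapped. Per2 followed at 67.0 ± 0.138, then Cry2 at 33.7 ± 2.00, Arntl at 27.4 ± 4.08 and Per3 at 15.2 ± 0.659. Npas2 was at 0.548 ± 0.482 per kb, from 5 counts in both libraries together.

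The order was different in the other groups. In WT H2O2 cells Cry1 (155 ± 2.26 per kb) stood above Clock (136 ± 7.67) and Per1 (118 ± 2.21). All 3 were again far above the rest. There Arntl at 21.1 ± 3.16 and Cry2 at 19.7 ± 0.728 per kb overlapped. In C3S basal cells Clock led at 223 ± 1.74 per kb, Cry1 followed at 183 ± 3.96 and Per1 at 93.5 ± 7.42. Per2, the fourth gene in WT basal cells, came sixth in C3S basal cells at 33.7 ± 0.122 per kb, below Cry2 (44.2 ± 1.15) and Arntl (38.4 ± 0.909) and above Per3 (27.6 ± 3.67). In C3S H2O2 cells Per2 (23.5 ± 2.02), Cry2 (23.2 ± 5.19) and Per3 (22.0 ± 1.53) could not be ordered, since their libraries overlapped. By merged exon length, Per3 was thus closest to Per2 in this group. With the length of the longest transcript in place of the merged exons, the full order was the same in 1 of the 4 groups, while Clock, Cry1 and Per1 were the top 3 and Npas2 the last gene in all 4. In WT H2O2 cells Clock (192 per kb) then stood above Cry1 (171) and Per1 (142). Per3 then stood above Per2 in C3S basal (44.1 against 33.8 per kb) and C3S H2O2 cells (35.2 against 23.6). Arntl (72.3) then stood above Cry2 (70.2) in C3S basal cells. The place of Per3 relative to Per2 in C3S cells thus depended on the length used.

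**Figure D1:**
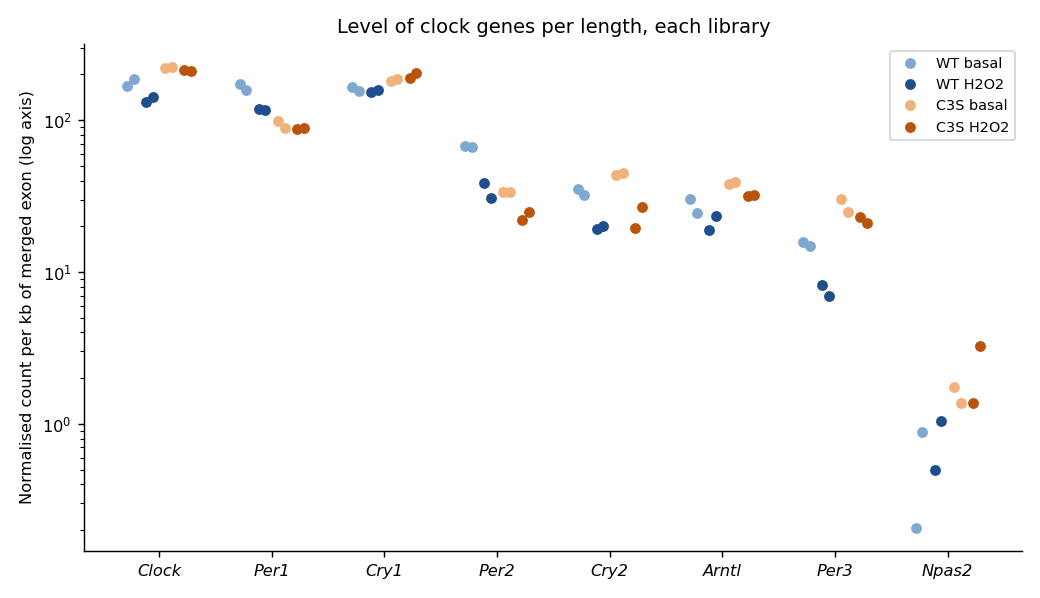
Normalised read count per kb of merged exon (log axis) of the 8 clock genes, ordered by their level in WT basal cells, with 1 point for each library. Clock, Per1 and Cry1 lie highest in all 4 groups, and Npas2 lies under 4 per kb in every library.

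The first comparison asks how the clock genes respond to peroxide in cells whose Stat3 can be oxidised. In WT cells, 6 of the 8 genes fell within 2 h: the 3 period genes, Cry2, Arntl and Clock. Per2 fell by 48.3% and Per3 fell by 50.1% in mean count, and Cry1 and Npas2 did not pass the test. Genes were said to rise or fall at an adjusted p under 0.05 (edgeR quasi-likelihood test, Benjamini-Hochberg over 13538 genes), and were called if they also changed at least 2-fold. Of all genes tested, 25.8% fell and 18.3% rose by the first rule, and 1.74% were called lower and 7.63% higher. Per3 was the 1 gene of the 8 that was called. The median log2 change of the 8 genes was -0.44, against -0.01 over all genes tested. All 14 fibroblast markers tested also fell, with a median of -0.50, and their part in the result was not tested.

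Per1, a repressor of Clock-Bmal1 and an early target of resetting signals, had normalised counts of 972.9 and 891.1 in the WT basal libraries and of 671.8 and 654.2 after H2O2. Both H2O2 libraries lay below both basal libraries. The mean went from 932.0 ± 57.9 to 663.0 ± 12.4 (log2 change -0.49, SE 0.0671, edgeR adjusted p = 2.4e-09). Per2, the period protein most needed for rhythms in mice, had 392.9 and 391.8 counts in the basal libraries and 225.5 and 180.5 after H2O2. The groups were again separate, and the fall was nearly 2-fold (log2 change -0.95, SE 0.110, edgeR adjusted p = 9.63e-12). Per3, which is dispensable for the basic rhythm in mice, went from 151.0 and 142.0 to 79.3 and 67.0 counts. The groups did not overlap (log2 change -1.01, SE 0.176, edgeR adjusted p = 1.47e-06). Per3 lay just past the 2-fold limit. It was called in 7 of 11 alternatives and fell in all 11, and without WT basal replicate 1 or without WT H2O2 replicate 2 its log2 change was above -1 and 0 of the 8 genes were called.

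The cryptochrome genes, whose proteins are the strongest repressors of Clock-Bmal1, did not move together. Cry2 had 221.7 and 203.8 counts in WT basal libraries and 121.2 and 127.7 after H2O2 (log2 change -0.77, SE 0.142, edgeR adjusted p = 3.97e-06). Cry1 had 549.3 and 519.5 counts before and 513.2 and 523.9 after, so that its groups overlapped (log2 change -0.04, SE 0.0801, edgeR adjusted p = 0.685). The exons of Cry2 share 295 bases with a gene on the other strand (D930015M05Rik), and the Arntl exons 33 bases with Gm45355. Whether reads were counted by strand was not stated in the sources used here, so that the counts of both genes are uncertain.

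Of the activators, Clock was the most abundant and fell from 2301 and 2552 counts to 1794 and 1943 (log2 change -0.38, SE 0.0520, edgeR adjusted p = 6.4e-09). Both H2O2 libraries lay below both basal ones. Arntl, the only activator gene whose loss alone stops the rhythm in mice, had 227.6 and 184.2 counts before and 141.8 and 175.5 after. Its groups did not overlap, and the fall was the least certain of the 6 (log2 change -0.38, SE 0.139, edgeR adjusted p = 0.0204). Arntl was past the threshold in 7 of 11 alternatives. It missed the threshold with DESeq2 (adjusted p = 0.185) and with total scaling (edgeR adjusted p = 0.115). It also missed without WT basal replicate 1 (log2 change -0.22) or WT H2O2 replicate 1 (log2 change -0.24). Npas2 had 0.990 and 4.26 counts before and 2.39 and 5.02 after (log2 change 0.50, SE 0.989, edgeR adjusted p = 0.714).

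**Figure D2:**
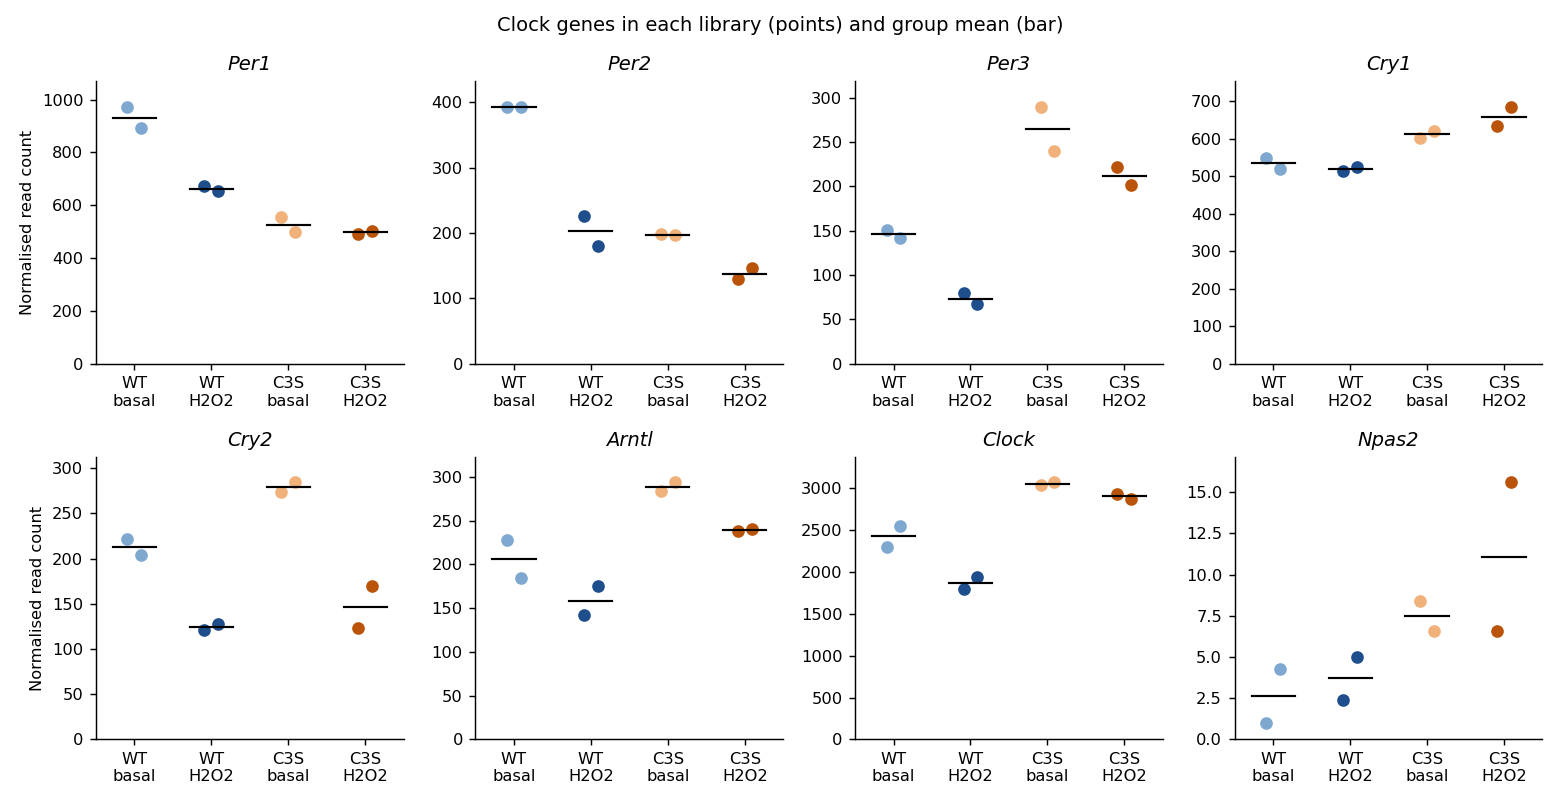
Normalised read count of each clock gene (vertical axes from 0) in the 8 libraries by group, with points for libraries and a bar for the group mean. Per1 and Per2 are highest in WT basal cells, while Per3, Arntl and Clock are highest in C3S basal cells.

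The same challenge was given to C3S cells. Of the 8 genes, 2 fell, Per2 and Cry2, and 0 rose. Of all genes tested, 20.5% fell and 17.4% rose in this comparison, and 1.48% were called lower and 7.19% higher. With edgeR 0 of the 8 genes were called. At an unadjusted p under 0.05, 4 of the 8 were lower, 0 higher and 0 changed 2-fold. The share of all genes at that unadjusted p was not counted, so the 4 cannot be set against it. DESeq2 also called 0 of the 8, and 788 over all genes. The median log2 change of the 8 was -0.17, against -0.01 over all genes, and 10 of the 14 fibroblast markers fell, with a median of -0.28.

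Cry2 showed the largest fall. Its counts went from 274.0 and 284.3 in C3S basal libraries to 123.5 and 169.9 after H2O2, and the groups did not overlap (log2 change -0.93, SE 0.141, edgeR adjusted p = 2.73e-05). Without C3S H2O2 replicate 2, the higher of the H2O2 libraries, the log2 change was -1.18 and Cry2 was called, and without C3S H2O2 replicate 1 it was -0.72. Per2 had 197.8 and 196.8 counts before and 129.1 and 145.9 after (log2 change -0.52, SE 0.140, edgeR adjusted p = 0.00581). The fall of Per2 missed the threshold without C3S basal replicate 2 (adjusted p = 0.0509) and with DESeq2 (adjusted p = 0.0785).

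Per1 had 556.3 and 497.2 counts in C3S basal libraries and 491.2 and 503.3 after H2O2, which overlap (log2 change -0.08, SE 0.0831, edgeR adjusted p = 0.498). The C3S basal level of Per1 was already below that of WT cells after H2O2. Per3 had 289.6 and 239.8 before and 221.8 and 201.0 after. Its libraries did not overlap, and it missed the threshold (log2 change -0.31, SE 0.126, edgeR adjusted p = 0.0554). It was past it in 5 of 11 alternatives, among them those without C3S basal replicate 2 (adjusted p = 0.0395) and without C3S H2O2 replicate 1 (adjusted p = 0.0312). Arntl, with 284.1 and 293.8 counts before and 238.5 and 240.5 after, was likewise close to the threshold (log2 change -0.27, SE 0.110, edgeR adjusted p = 0.0566). The most abundant members were steadier. Clock had 3038 and 3072 counts before and 2935 and 2878 after (log2 change -0.07, SE 0.0447, edgeR adjusted p = 0.224). Cry1 had 601.8 and 620.5 before and 632.2 and 684.8 after (log2 change 0.11, SE 0.0737, edgeR adjusted p = 0.28). For both genes the change was under 10% of the basal mean. Npas2 had 8.39 and 6.59 counts before and 6.57 and 15.6 after, and its groups overlapped (log2 change 0.57, SE 0.618, edgeR adjusted p = 0.504).

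**Figure D3:**
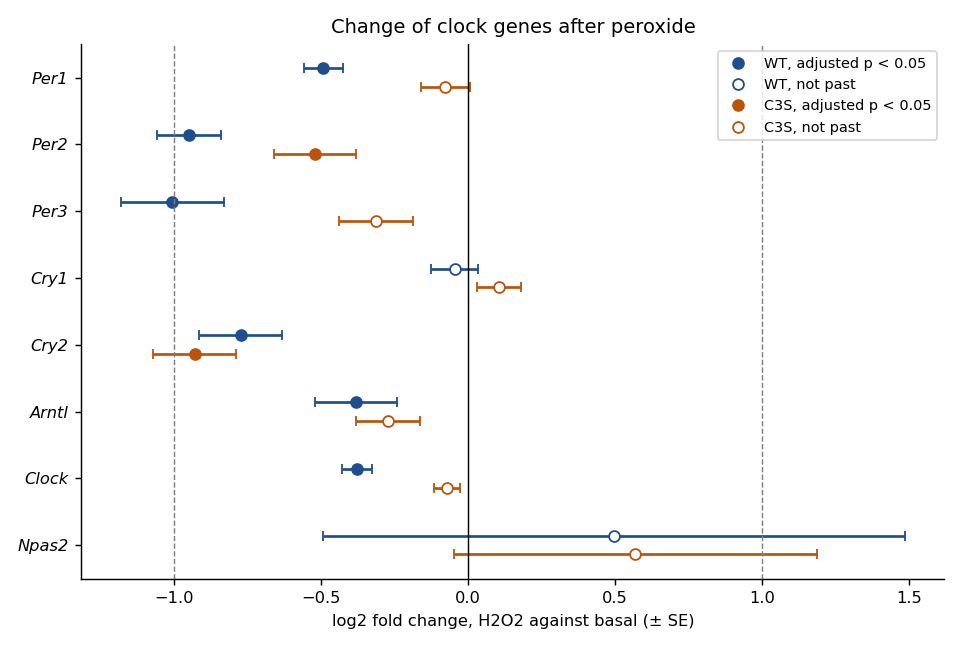
Log2 fold change of each clock gene after H2O2 against basal in WT and C3S cells, with bars for the SE. Filled points have an adjusted p under 0.05 and dashed lines mark a 2-fold change. Cry2 lies at -0.77 (WT) and -0.93 (C3S), while the 2 points of Per1 lie apart, at -0.49 (WT) and -0.08 (C3S).

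To ask whether the lines responded differently, the line by treatment interaction was fitted over all 8 libraries. The log2 change of Per1, Clock and Per3 was less negative in C3S than in WT cells, and the other 5 genes did not pass. In this test 9.18% of all genes were past the threshold with a higher (less negative or more positive) response in C3S cells and 3.38% with a lower one. The count of 3 of 8 became 1 of 8 with DESeq2 or without C3S basal replicate 2. Of the 14 fibroblast markers tested, 7 had a higher response in C3S cells, with a median difference of 0.23, as for the 8 genes (0.23), and their part in the result was not tested. With a 2-fold minimum 1% and 0.414% of all genes were called, and 0 of the 8 were, by edgeR or by DESeq2. At an unadjusted p under 0.05, 4 of the 8 were higher, 0 were lower and 0 differed 2-fold, while the share of all genes was not counted.

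For Clock the difference in log2 change, C3S minus WT, was 0.30 (SE 0.0717, edgeR adjusted p = 0.00332), and it passed in all 14 alternatives, with adjusted p from 0.000267 to 0.0481. For Per1 it was 0.41 (SE 0.107, edgeR adjusted p = 0.00738) and passed in 12 of 14. Per1 missed the threshold with DESeq2 (adjusted p = 0.0732) and without C3S basal replicate 2 (adjusted p = 0.0825). Of these 3 genes, Per3 had the largest difference and the widest error, 0.69 (SE 0.208, edgeR adjusted p = 0.0238). It passed in 8 of 14 alternatives. It missed the threshold with DESeq2 (adjusted p = 0.153) and with total scaling (edgeR adjusted p = 0.0522). Without WT basal replicate 1, C3S basal replicate 2, WT H2O2 replicate 2 or C3S H2O2 replicate 1 it also missed. The difference was then 0.65, 0.55, 0.59 or 0.61. Per3 also belongs to a list that the study itself chose on the present libraries, which is not independent evidence of its direction.

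For the other genes the difference was smaller or less certain. Per2 differed by 0.43 (SE 0.180, edgeR adjusted p = 0.122). The fall of Cry2 differed by -0.16 between lines, with an adjusted p of 0.681, and the values for Cry1 (0.15, adjusted p = 0.409), Arntl (0.11, adjusted p = 0.767) and Npas2 (0.07, adjusted p = 0.99) did not pass either. A p that misses the threshold does not show that the responses were alike.

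The next comparison asks how the clock genes of untreated cells differ with the Stat3 form they carry. Of the 8 genes, 7 differed between C3S and WT cells at baseline. Per1 and Per2 were lower in C3S cells, and Per3, Cry1, Cry2, Arntl and Clock were higher. Such differences were common, as 28.3% of all genes tested were higher and 28.9% lower in C3S cells. At least 2-fold, 6.07% were called higher and 9.39% lower. With edgeR 0 of the 8 genes were called, and DESeq2 called 0 as well (1766 over all genes). At an unadjusted p under 0.05, 5 were higher, 2 were lower and 0 differed 2-fold, while the share of all genes was not counted.

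Among the repressor genes, the period family was split. Per1 averaged 526.7 ± 41.8 counts in C3S cells against 932.0 ± 57.9 in WT (log2 change -0.83, SE 0.0753, edgeR adjusted p = 1.25e-14). Per2 had 197.3 ± 0.712 counts in C3S cells against 392.3 ± 0.807 in WT, a difference a little under 2-fold (log2 change -0.99, SE 0.110, edgeR adjusted p = 1.3e-11). Per3 went the other way, from 146.5 ± 6.34 in WT to 264.7 ± 35.2 in C3S cells (log2 change 0.85, SE 0.133, edgeR adjusted p = 1.9e-07). The share among all genes was not counted, and libraries were separate between the lines for every clock gene here, Npas2 included. Separation therefore does not set these 3 period genes apart. Their directions were the same in all 11 alternatives, and each stayed past the threshold. Cry2 had 279.2 ± 7.29 counts in C3S and 212.8 ± 12.6 in WT cells, and so was higher (log2 change 0.40, SE 0.118, edgeR adjusted p = 0.00326). It passed in 10 of 11 alternatives and missed the threshold with DESeq2 (adjusted p = 0.0752). Cry1 was higher by 0.19 (SE 0.0801, edgeR adjusted p = 0.0339), a small difference that passed in 6 of 11 alternatives. It missed the threshold with DESeq2 (adjusted p = 0.214) and with total scaling (edgeR adjusted p = 0.329). Without WT basal replicate 2, C3S basal replicate 1 or C3S basal replicate 2 it also missed. The log2 change was then 0.15, 0.22 or 0.18.

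Of the activators, Arntl and Clock were higher in C3S cells. Arntl had 289.0 ± 6.84 counts against 205.9 ± 30.7 (log2 change 0.49, SE 0.120, edgeR adjusted p = 0.000428). Clock had 3055 ± 23.9 against 2427 ± 177 (log2 change 0.33, SE 0.0530, edgeR adjusted p = 2.28e-07). Both passed in all 11 alternatives. Npas2 was at 7.49 ± 1.27 against 2.62 ± 2.31 counts and did not pass (log2 change 1.48, SE 0.881, edgeR adjusted p = 0.15). As a ratio of the summed reads, 14 against 5, this is 2.88 (95% counting interval 0.980 to 10.2).

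After H2O2, Per3, Cry1, Arntl and Clock were higher in C3S than in WT cells, and Per1 and Per2 were lower. Across all genes 32.4% were higher and 32% lower, and 7.8% were called higher and 10.7% lower. Of the 8 genes, 5 were higher and 2 lower, with Npas2 among the higher ones, and 2 were called higher, Per3 and Npas2. Npas2 entered the test only because its mean expected count in C3S H2O2 cells reached 10, so it was bound to stand higher there.

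Per3 showed the largest difference of the well-measured genes. It had 79.3 and 67.0 counts in WT H2O2 libraries and 221.8 and 201.0 in C3S H2O2 libraries, a ratio of means of 2.89 (log2 change 1.54, SE 0.162, edgeR adjusted p = 1.66e-12). It was called in all 11 alternatives. Clock stood at 2907 ± 40.3 in C3S against 1868 ± 105 in WT cells (log2 change 0.64, SE 0.0462, edgeR adjusted p = 9.77e-19). Arntl stood at 239.5 ± 1.42 against 158.7 ± 23.8 (log2 change 0.60, SE 0.132, edgeR adjusted p = 8.45e-05). The activators Arntl and Clock were thus higher in C3S cells both before and after peroxide. Cry1 had 658.5 ± 37.2 against 518.5 ± 7.55 counts (log2 change 0.34, SE 0.0768, edgeR adjusted p = 8.89e-05).

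Per1 was at 497.3 ± 8.53 counts in C3S cells against 663.0 ± 12.4 in WT (log2 change -0.42, SE 0.0769, edgeR adjusted p = 4.09e-06). Per2 was at 137.5 ± 11.9 against 203.0 ± 31.9 (log2 change -0.56, SE 0.144, edgeR adjusted p = 0.000557), and missed the threshold without WT H2O2 replicate 1 (adjusted p = 0.0786). Cry2, whose libraries overlapped, did not pass (log2 change 0.24, SE 0.162, edgeR adjusted p = 0.194). Without C3S H2O2 replicate 1 it passed (0.45, adjusted p = 0.0243) while without C3S H2O2 replicate 2 it was at -0.01. Npas2 was the least well measured. It was at 11.1 ± 6.39 against 3.71 ± 1.86 counts (log2 change 1.56, SE 0.708, edgeR adjusted p = 0.0495). It passed in 1 of 9 alternatives, with adjusted p up to 0.303, and missed the threshold without WT H2O2 replicate 1 (0.303) or WT H2O2 replicate 2 (0.0865). From 20 reads against 9, the ratio was 3.01 (95% counting interval 1.31 to 7.50).

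**Figure D4:**
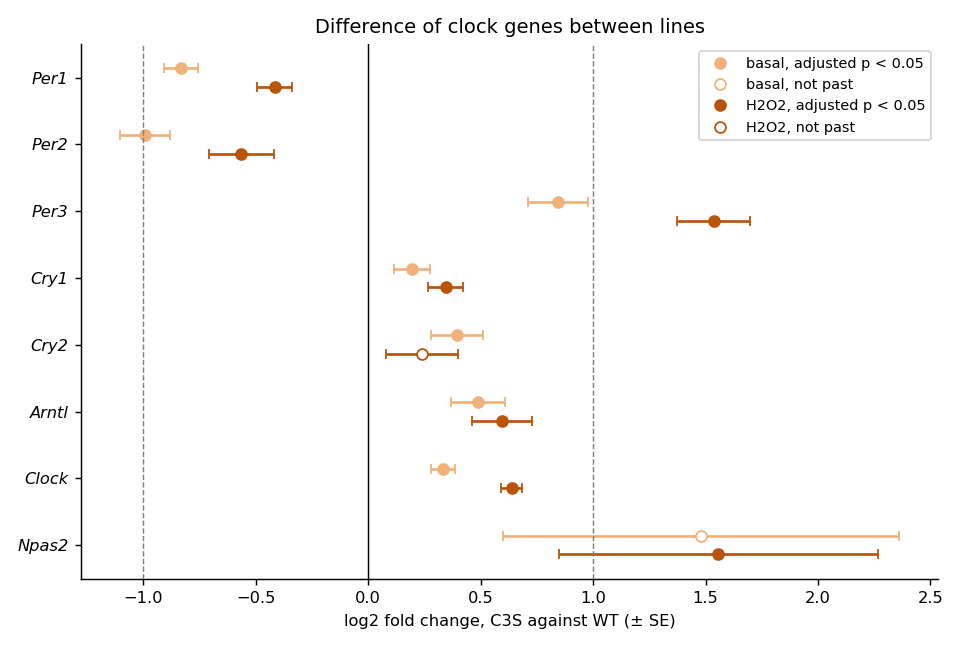
Log2 fold change of each clock gene in C3S against WT cells, basal and after H2O2, with bars for the SE. Filled points have an adjusted p under 0.05 and dashed lines mark a 2-fold change. Per1 and Per2 lie below 0 and Per3 above it in both conditions, and Per3 lies at 1.54 after H2O2.

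Ratios of 2 genes within a library do not depend on how libraries are scaled. The pairs were chosen after the values had been seen, and are given as a description with no test. The Per3 to Per1 ratio, per kb, was 0.0909 and 0.0934 in WT basal libraries, 0.0692 and 0.0600 in WT H2O2, 0.305 and 0.283 in C3S basal and 0.265 and 0.234 in C3S H2O2. All 4 C3S libraries thus lay above all 4 WT libraries, by more than 2-fold. The Cry2 to Cry1 ratio was 0.213 and 0.207 in WT basal and 0.241 and 0.242 in C3S basal libraries. It was 0.125 and 0.129 in WT H2O2 and 0.103 and 0.131 in C3S H2O2 libraries, so it separated basal from H2O2 and not the lines after H2O2. The Per2 to Per1 ratio was also lower in every H2O2 library (0.253 to 0.323) than in every basal one (0.342 to 0.423). The Arntl to Clock ratio ran from 0.132 to 0.180, and both extremes were WT basal libraries. No other group lay outside this range.

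**Figure D5:**
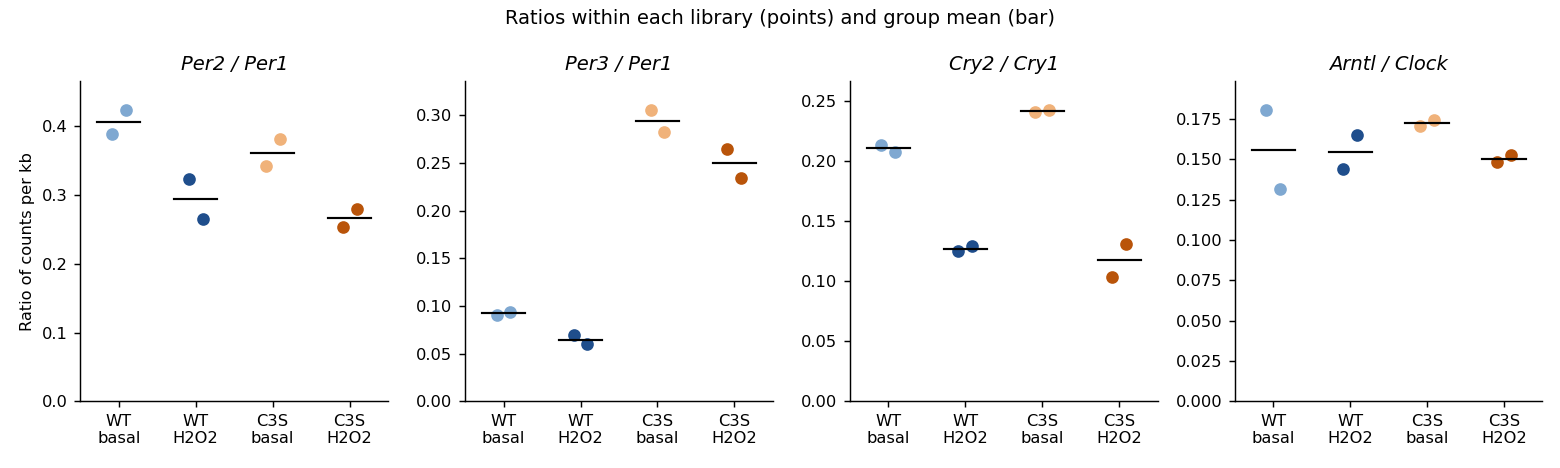
Ratio of normalised counts per kb for 4 pairs of clock genes (vertical axes from 0), with 1 point for each library and a bar for the group mean. The Per3 to Per1 ratio lies at 0.0600 to 0.0934 in WT libraries and at 0.234 to 0.305 in C3S libraries.

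Of the genes with a mean count of at least 100, those whose pattern over the 8 libraries was most like that of Per3 were Crabp1, Emilin1 and Adam12. Their root mean square differences from Per3 in centred log2 counts were 0.118, 0.145 and 0.148, the smallest of 9871 genes. Crabp1, a retinoic acid binding protein, had means of 500 counts in WT basal, 280 in WT H2O2, 931 in C3S basal and 771 in C3S H2O2 cells. For Npas2 the nearest genes were Pcdh17 (0.473), Ccdc85c (0.477) and C630043F03Rik (0.479), a distance several times that of the Per3 neighbours.

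The other genes of the clock are given by 4 lists drawn up from general knowledge. Of 12 tested factors of the accessory loops and clock output, 3 rose and 2 fell in WT cells after H2O2, 7 rose and 1 fell in C3S cells, and 5 responded differently, all with a higher response in C3S cells. Of all genes tested, 18.3% rose and 25.8% fell in WT cells, 17.4% rose and 20.5% fell in C3S cells, and 9.18% had a higher response in C3S cells. The median log2 change of the list was 0.22 in WT and 0.66 in C3S cells, against -0.01 over all genes in each. Nr1d1, which encodes the Rev-erb repressor of Arntl, was at 313 in WT basal and 316 in WT H2O2 cells and rose from 532 to 1127 in C3S cells (log2 change 1.08, SE 0.0705, edgeR adjusted p = 3.06e-10). Its response differed between the lines by 1.06 (SE 0.125, edgeR adjusted p = 1.2e-07). Bhlhe40, a repressor that competes for E-boxes, rose in both, from 1447 to 5567 counts in WT cells (log2 change 1.94) and from 392 to 3315 in C3S cells (3.08). Per2 and Cry2 fell in both lines, while Cry1 passed the test in neither and Per1 fell in WT cells only. A link between Bhlhe40 and these genes was not tested. Gm129, the older symbol of Ciart, another repressor of Clock-Bmal1, rose by 1.98 and 2.15 on the log2 scale in WT and C3S cells.

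Of the factors that bind D-boxes, as found in the Per3 window, Tef, Hlf and Nfil3 are given here and Dbp is not. After H2O2 the means of Tef, Hlf and Nfil3 were all higher in C3S than in WT cells. At baseline Tef and Hlf were higher in C3S cells and Nfil3 was lower. A link between these factors and Per3 was not tested. Tef stood at 539 in WT H2O2 and 1186 in C3S H2O2 cells (log2 change 1.14, SE 0.0655, edgeR adjusted p = 3.85e-23). Hlf was higher in C3S cells at baseline (64.9 against 11.9 counts) and after H2O2 (48.6 against 15.9). The D-box repressor Nfil3 responded differently in the lines, with a difference of 1.31 in log2 change (SE 0.1000, edgeR adjusted p = 7.85e-12). Nfil3 stood at 839 in WT basal, 580 in WT H2O2, 451 in C3S basal and 773 in C3S H2O2 cells, lower after H2O2 in WT and higher in C3S cells. Rora, an activator of Arntl, was low in WT basal cells (3.61 counts) and higher in C3S basal cells (26.0, log2 change 2.81), and it was called higher after H2O2 in both lines. Rorb was lower in C3S H2O2 than in WT H2O2 cells, at 3.95 against 16.4 counts (log2 change -2.08, SE 0.641). Only its mean in WT H2O2 cells was high enough to enter the test, so Rorb was bound to stand lower in C3S H2O2 cells.

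Among 22 tested kinases and ubiquitin enzymes of Per and Cry proteins, 5 rose and 9 fell in WT cells (18.3% and 25.8% of all genes) and 4 rose and 6 fell in C3S cells (17.4% and 20.5% of all genes). Their median log2 change was -0.06 in WT and 0.02 in C3S cells. The called genes were Usp2, a deubiquitinase of clock proteins, which fell from 106 to 52.4 counts in WT cells (log2 change -1.02), and Prkaa2, an AMP kinase subunit that marks Cry1 for breakdown. Prkaa2 was higher in C3S cells by 2.16 at baseline and 2.85 after H2O2 on the log2 scale. Of 23 cofactors of the Per complex and of Clock-Bmal1, 2 rose and 11 fell in WT cells (18.3% and 25.8% of all genes) and 4 rose and 9 fell in C3S cells (17.4% and 20.5%), with a median of -0.08 in each line.

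Of 20 genes of the Creb, serum response and glucocorticoid inputs, 1 rose and 10 fell in WT cells (18.3% and 25.8% of all genes), and 3 rose and 5 fell in C3S cells (17.4% and 20.5%). At baseline 13 were higher and 3 lower in C3S cells, against 28.3% and 28.9% of all genes. The median log2 change of the list was -0.19 in WT cells, -0.02 in C3S cells and 0.20 between the lines at baseline. Sik1, a kinase that restrains the Creb coactivators and is itself a Creb target, fell from 1128 to 360 counts in WT cells (log2 change -1.65, SE 0.0718, edgeR adjusted p = 1.05e-33). It stood at 279 in C3S basal cells and 252 in C3S H2O2 cells, and its response differed by 1.51 (edgeR adjusted p = 2.7e-10). Sik1, Per1 and Per2 thus shared an order of group means, highest in WT basal, then WT H2O2, then C3S basal and C3S H2O2. For Per2 the libraries of WT H2O2 and C3S basal cells overlapped, and for Per1 those of C3S basal and C3S H2O2 cells. Sik1 was at 279 ± 13.1 in C3S basal and 252 ± 37.4 in C3S H2O2 cells. The order of the C3S groups was thus not resolved for Per1 or Sik1. A link between Sik1 and the period genes was not tested. Rps6ka5, a kinase of Creb, was higher in C3S cells by 1.80 at baseline and 1.77 after H2O2, Sik2 by 1.26 after H2O2, and Tsc22d3, a glucocorticoid target, rose by 1.00 in C3S cells after H2O2.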

How the data were processed

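RNA of 8 libraries (4 groups of 2) was sequenced with a directional kit as single-end reads. The methods state that the authors used Scythe and Sickle for trimming, TopHat2 2.0.10 for alignment to mm10, and uniquely mapped exonic reads for counting. The counting program, and whether it used strand, is not given in the sources used here. The deposited table holds expected counts, estimated per gene and not scaled, of which 58.4% of values above 0 were whole (tolerance 1e-09). A second deposited sheet holds a signal, the expected counts that the authors divided by 1 size factor per library, and was used only to check this ratio. A further 24 columns of values per group were not used. Of the 19041 rows, 27 had a date-like number for a name and held 0.28% of counts.

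Expected counts were rounded, and genes with a mean of at least 10 in any group were tested (13538 genes; 5503 left out). Size factors were medians of ratios over all 8 libraries, which hides any change in the total RNA of a cell. Comparisons were fitted on their 4 libraries, and the interaction on 8, with the quasi-likelihood test of edgeR 4.0.16 (robust, R 4.3.3), after a test on simulated data. SE is the log2 change divided by the square root of F. The alternatives used TMM or total scaling, DESeq2 1.42.0, other filters, all 8 libraries in the fit, a replicate block, no minimum fold change and each library left out in turn. The members and lists were chosen with earlier results of these data known. Named besides the 8 genes were Stat3, the called genes of the 4 lists (up to 4 in each direction) and the 3 genes most like each called member. The study calls the libraries of a group biological replicates, while the labels do not say that they are separate cultures, and p-values measure the spread between these samples. Counting intervals are exact and cover counting error only. Promoters came from RefSeq (GRCm38.p6), gene positions and lengths from GENCODE M21.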

Additional observations from a re-analysis of the deposited data

Results flagged for a closer look

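With 2 libraries in each group no single library could be tested as an outlier. The response to H2O2 of 3 of the 8 genes differed between the lines by the test of the interaction, as C3S minus WT on the log2 scale: Per1 by 0.41, Per3 by 0.69 and Clock by 0.30. In each case the fall was larger in WT cells.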

How the results depend on the processing

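Of the values of single genes under the alternatives, 406 kept their direction and their side of the threshold, 30 lost the threshold, 9 gained it and 11 changed sign. In WT cells the count of called genes after H2O2 (1 as reported) was 0 with TMM or total scaling and 0 to 2 with each library left out, and 6 with no minimum fold change. In C3S cells it was 0 as reported, 0 to 1 with each library left out and 2 with no minimum fold change. The 2 genes past the adjusted p in C3S cells became 4 with TMM scaling, 1 with DESeq2 and 2 to 3 with each library left out. At baseline 0 called genes became 1 with total scaling (Per2) and 7 with no minimum fold change. After H2O2, 2 called genes became 1 with TMM scaling, total scaling, DESeq2, no filter on low counts, a minimum mean of 50 or all 8 libraries in the fit, 1 to 2 with each library left out and 7 with no minimum fold change. For the interaction 0 called genes became 3 with no minimum fold change, and the 3 past the adjusted p were 1 with DESeq2 and 1 to 4 with each library left out. The order by level per kb was the same in 1 of 4 groups with the longest transcript. The cause of these changes was not tested, except that a rule with no minimum fold change admits more genes.

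Values that changed sign were small or rested on few reads. Cry1 in WT cells was 0.066 with total scaling, and the interaction of Npas2 was -0.0063. With each library left out, Npas2 in WT cells ran from -0.21 to 1.78, Cry2 between the lines after H2O2 from -0.011 to 0.451, and the interactions of Cry2 from -0.414 to 0.0505, of Arntl from -0.0489 to 0.277 and of Npas2 from -1.20 to 0.782.

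Libraries with the same replicate number did not deviate together (correlations from -0.009 to 0.030 over 13538 genes). Genes with few counts enter this check, and whether libraries with the same number were handled together was not tested otherwise. With the replicate block, 4 genes passed in C3S cells after H2O2 in place of 2, and 1 was called between the lines after H2O2 in place of 2.

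Over all genes, a minimum mean of 50 gave 524 called genes in place of 1269 in WT cells and 572 in place of 1175 in C3S cells, and DESeq2 gave 112 in place of 192 for the interaction. With no minimum fold change the counts were 5972, 5132, 7743, 8721 and 1700. With total scaling the median log2 change of all genes was 0.097 in place of -0.01 for WT cells after H2O2. Between the lines it was -0.11 in place of -0.01 at baseline and -0.20 in place of -0.02 after H2O2. Depth limits Npas2, which had 5 to 20 reads a group.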
